A study of Homo sapiens with 13 samples.

Results

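PU1 homotypic arrays are synthetic enhancers that carry 1 to 5 copies of the motif named PU1 and no other motif. An array was counted as a member when every motif in its construct name was PU1, so the choice used names and no measured value. The rule found 14 of the 542 designs named in the series. These were arrays of 1, 2, 3 and 4 copies in each of 3 flanking contexts and arrays of 5 copies in contexts 1 and 2, while 5 copies in context 3 were not analysed here. All 14 were measured in both episomal libraries and 13 in the integrated library.

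PU1 is taken here as the motif of PU.1, the ETS family factor encoded by SPI1, which binds purine-rich DNA around a GGAA core. PU.1 is known as a regulator of myeloid and B lymphoid development whose dose matters for lineage choice. In B cells it also binds enhancers together with IRF4 or IRF8 at composite sites, so it is known both as an activator of its own and as a partner of other factors.

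The arrays were tested by STARR-seq, in which a candidate enhancer lies inside a reporter transcript and an active sequence raises its own share of the mRNA. The cells were MEC1, an established cell line from a chronic lymphocytic leukaemia, a cancer of B lymphocytes, labelled wild type and untreated in every sample. The episomal assay had, for arrays with 10 bp and with 5 bp between neighbouring motifs, 2 mRNA libraries from duplicate transfections harvested after 24 h and 1 plasmid DNA library each. The integrated assay placed the 5 bp pool in a genomic landing pad by CRE-mediated cassette exchange, sorted cells after 10 to 12 days, grew them for 6 to 7 more days and gave 3 mRNA samples, 3 genomic DNA samples and 1 plasmid DNA sample. The comparison constructs were the 3 named rd, 1 per flanking context, which hold none of the 8 motif names and are taken as constructs without a motif. Arrays of 1 motif have no neighbouring motif, so the spacer label names only the pool they came from.

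For the motifs, spacers and flanks, sequences were not given in the sources used here. Each plasmid is known by a random 12-base barcode, and 4 barcodes are shown because each alone carries a large part of an integrated value given further down. They are written 5′ to 3′ and nothing in them is capitalised, since the whole run is the tag.
PU1, 1 copy, context 1: gcctggacgtgt
PU1, 2 copies, context 3: gcaccgtggact
rd, context 1: acaccatgatac
rd, context 2: atgattacgcaa

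The PU1 arrays were read through 3463 barcodes in the 10 bp library and 2951 in the 5 bp library, each with at least 5 plasmid reads, and through 234 barcodes in the integrated library. The rd constructs were read through 2428, 1712 and 123 barcodes in the same order of libraries. Coverage was thinnest for 4 and 5 copies: 1599, 834, 828, 144 and 58 barcodes stood behind 1 to 5 copies at 10 bp, and 1283, 692, 836, 121 and 19 at 5 bp. The arrays of 5 copies in the 5 bp library rest on 9 and 10 barcodes with 101 and 137 plasmid reads. Activity below is the log2 ratio of an array's share of mRNA reads to its share of plasmid reads. Each episomal library held between 3850658 and 4563359 reads.

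With 10 bp spacers, arrays of 2 to 5 PU1 copies gave less reporter mRNA than the construct without a motif in every context. A single PU1 copy was above rd in contexts 1 and 3 and below it in context 2. Relative to rd of the same context, 12 of 14 arrays were lower and 2 higher (edgeR's quasi-likelihood test, Benjamini-Hochberg adjusted p under 0.05). Of all 439 constructs tested in this library, 44.9% were lower and 44.9% higher.

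In context 1, the single copy had an activity of 0.15 and 0.06 in the 2 mRNA libraries, against -0.62 and -0.74 for rd. It lay above rd in both, by 0.79 on the log2 scale (SE 0.10, adjusted p = 1.66e-14). In context 3, the single copy had -0.07 and -0.04, against -0.82 and -0.93 for rd, a difference of 0.82 (SE 0.10, adjusted p = 8.99e-16). These are 1.72-fold and 1.76-fold more mRNA per plasmid than rd. In context 2 the same motif had -1.15 and -1.26, against -0.27 and -0.35 for rd. This array lay below rd in both libraries, by -0.89 (SE 0.10, adjusted p = 9.67e-20), which is 1.86-fold less mRNA per plasmid. Scaling by library totals sets mRNA against plasmid DNA over all constructs and not against rd. On that scale no array at 10 bp passed as higher and 12 passed as lower. The single copy in context 3 stood at -0.05 there and did not pass.

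The deepest loss at 10 bp was that of 3 copies in context 2. Its 171 barcodes gave 647 and 668 mRNA reads for 4636 plasmid reads, whereas rd of that context gave 9652 and 9033 mRNA reads for 12769 plasmid reads. Relative to rd it stood at -2.44 and -2.30, a mean of -2.37 (SE 0.10, adjusted p = 5.49e-91), or 5.16-fold less. Arrays of 3 and 4 copies in context 1 followed at -1.94 (SE 0.10, adjusted p = 6.93e-69) and -2.06 (SE 0.15, adjusted p = 3.93e-38). Context 3 stood highest relative to rd among arrays of 2 to 4 copies, with -0.35, -0.91 and -1.07. The first of these is 1.28-fold less than rd. As activity not set against rd, 4 copies had -1.92 in context 2 and -1.94 in context 3. Averaged over contexts, with 5 copies in contexts 1 and 2 only, 1 to 5 copies stood at 0.24 ± 0.04, -1.11 ± 0.16, -1.74 ± 0.07, -1.58 ± 0.10 and -1.72 ± 0.15 relative to rd (SD, n = 2 mRNA libraries, which share the plasmid library).

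With 5 bp spacers single copies stood above rd in all 3 contexts, and arrays of 4 and 5 copies below it in every context measured. Of 14 arrays, 9 were lower than rd, 3 were higher and 2 did not pass. Of the 439 constructs tested, which are those measured with both spacers, 25.1% passed as lower and 66.1% as higher. All 3 higher calls are single copies. Under TMM scaling or library totals, which leave rd out as the reference, each stood below 0, as given with the other scalings below. Without either of the 2 mRNA libraries, 2 arrays passed as higher, those in contexts 1 and 3.

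The single copy at 5 bp had an activity of -0.58 and -0.59 in context 1, against -1.27 and -1.23 for rd. The difference was 0.66 (SE 0.10, adjusted p = 1.02e-10). In context 3 it had -0.92 and -0.93, against -1.58 and -1.51 for rd, a difference of 0.62 (SE 0.10, adjusted p = 1.87e-09). Context 2 gave the smallest difference, at 0.24 (SE 0.10, adjusted p = 0.0156), from -0.77 and -0.97 against -1.06 and -1.17 for rd. As fold values the 3 single copies gave 1.58, 1.18 and 1.54 times the mRNA per plasmid of rd in contexts 1, 2 and 3, in the scaling on rd.

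Among the larger arrays at 5 bp, 3 copies in context 2 stood at -1.11 and -1.05 relative to rd, a mean of -1.08 (SE 0.10, adjusted p = 8.51e-24), or 2.12-fold less. The 5-copy arrays stood at -1.18 (SE 0.31, adjusted p = 0.000193) in context 1 and -1.03 (SE 0.25, adjusted p = 6.40e-05) in context 2. The 4-copy arrays stood at -1.06, -1.02 and -0.74 in contexts 1 to 3, and all 3 passed. Context 3 again stood highest relative to rd among arrays of 2 to 4 copies. There 2 copies stood at 0.07 (SE 0.10, adjusted p = 0.489) and 3 copies at -0.14 (SE 0.10, adjusted p = 0.169), and neither passed. Averaged over contexts, 1 to 5 copies stood at 0.51 ± 0.05, -0.25 ± 0.02, -0.67 ± 0.05, -0.95 ± 0.10 and -1.11 ± 0.01 relative to rd (SD, n = 2).

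The number of arrays called higher depends on the reference. The fits above set each construct against rd, whereas TMM scaling and library totals set mRNA against plasmid DNA without rd. Calls under those scalings are therefore not calls against rd. TMM scaling moved the median of all constructs by -0.76 at 5 bp and -0.07 at 10 bp, and library totals moved it by -1.30 and -0.62. With TMM at 5 bp, 0 PU1 arrays passed as higher and 13 as lower, and the single copies stood at -0.04, -0.32 and -0.38 in contexts 1 to 3, the last pair passing as lower (adjusted p = 0.00179 and 2.24e-05). With library totals all 14 passed as lower. The median over the 14 arrays was -1.48 at 10 bp and -0.65 at 5 bp relative to rd, beside -0.05 and 0.62 over all constructs. Reads of rd enter as fixed values, so the SEs leave out the spread among rd barcodes, which was at most 0.05 in log2 units per rd construct in the first mRNA library. Reads were summed per construct, so the SEs also leave out the spread among the barcodes of each PU1 array. For 4 copies in context 2 at 10 bp the SE was 0.13, whereas the spread among its barcodes gave 0.53 and 0.67 in the 2 mRNA libraries.

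Activity fell with each of the first 2 added copies, in every context and with both spacers. The steps compare arrays within the same libraries, so the scaling and rd drop out. All 12 steps, 3 contexts with 10 bp and with 5 bp spacers from 1 to 2 and from 2 to 3 copies, were below 0 in both mRNA libraries and passed (limma, adjusted p under 0.05). In every one of them the difference also exceeded 2 standard errors estimated from the spread among barcodes. At 10 bp, 58.2% of the 91 copy-number steps of all 8 motifs passed as lower and 28.6% as higher, and at 5 bp these shares were 50.5% and 33%.

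Adding the second copy cost most in context 1 at 10 bp, where the difference was -2.26 and -2.03 in the 2 mRNA libraries. The mean of -2.14 has a 95% interval of -2.44 to -1.85 and an adjusted p of 0.00244. The same step gave -0.72 in context 2 and -1.17 in context 3 at 10 bp. At 5 bp it gave -0.93, -0.80 and -0.55 in contexts 1 to 3. Adding a further copy gave -0.58, -0.75 and -0.55 at 10 bp and -0.53, -0.53 and -0.22 at 5 bp. The loss from the second copy was larger than that from the next one in 5 of the 6 series in mean value, the exception being context 2 at 10 bp, and no test was made of one step against the other.

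Beyond 3 copies the steps were small or carried by few barcodes. Of the 3 steps from 3 to 4 copies at 10 bp, 2 passed as lower and 1 as higher, and none exceeded 2 barcode standard errors. The higher one was context 2, at 0.76, where a single barcode carried 42.4% and 53.0% of the array's mRNA reads in the 2 libraries, and the barcode standard error was 0.62. At 5 bp, context 3 lost another 0.62, read as a difference of -0.62 (adjusted p = 0.0113), beyond 2 barcode standard errors. None of the 4 steps from 4 to 5 copies exceeded 2 barcode standard errors, at 0.39 and -0.18 for 10 bp and -0.13 and -0.01 for 5 bp in contexts 1 and 2.

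Least-squares slopes over all copies measured gave -0.56, -0.18 and -0.62 log2 units per copy at 10 bp and -0.45, -0.30 and -0.44 at 5 bp in contexts 1 to 3. All 6 passed (limma), while 75% of the 24 slopes of the 8 motifs passed as lower at 10 bp and 41.7% at 5 bp. The slope in context 2 at 10 bp rests on the single copy, and without it stood at 0.026.

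A property of the deposited tables bears on how deep these losses could read. Every listed barcode has at least 1 read in each library, so a barcode that lost all its mRNA is not there to be counted, and the activity of weak arrays is overstated. Among barcodes with at least 20 plasmid reads, the share that had exactly 1 read in the first mRNA library was 2.53%, 7.78%, 12.9%, 12.5% and 18.8% for 1 to 5 copies at 10 bp, against 1.59% for rd. At 5 bp it was 1.80%, 4.69%, 7.57%, 15.8% and 33.3%, against 1.40% for rd, with only 3 barcodes behind the last value. The share of barcodes at this lowest possible read number was thus higher where measured activity was lower, up to 3 copies at 10 bp and over all copies at 5 bp. How much lower the activity would be with the missing barcodes was not tested.

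The flanking context changed the activity of PU1 arrays with the same copy number. The order of contexts at 1 copy differed from that at 2 and 3 copies with 10 bp spacers, and from that at 3 copies with 5 bp spacers. With 10 bp spacers the single copy was weakest in context 2, whereas with 2 or 3 copies context 3 was above both others and contexts 2 and 1 differed by 0.11 and -0.05, which did not pass. Of the 13 context differences at 10 bp, 8 passed as higher, 1 as lower and 4 did not pass (limma), beside 43.4% higher and 31% lower among the 113 such differences of all motifs. At 5 bp 5 passed as higher, 4 as lower and 4 did not pass, beside 30.1% and 45.1%.

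The single copy at 10 bp was 1.31 lower in context 2 than in context 1, as a difference of -1.31 (95% interval -1.39 to -1.23, adjusted p = 0.00272), and context 3 exceeded context 2 by 1.15 (0.94 to 1.36, adjusted p = 0.00457). Context 3 minus context 1 was -0.16 and did not pass (adjusted p = 0.0667). With 2 copies, context 3 exceeded context 1 by 0.81 and context 2 by 0.70, and with 3 copies by 0.84 and 0.90, each past 2 barcode standard errors. With 4 copies it exceeded context 1 by 0.80, but its difference from context 2 was -0.03 and did not pass, that context being the one led by a single barcode.

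At 5 bp the single copy was highest in context 1. Contexts 2 and 3 stood -0.29 (-0.42 to -0.16) and -0.34 (-0.45 to -0.23) from it, with adjusted p of 0.0012 and 0.000147. With 3 copies the order turned, and context 3 exceeded context 2 by 0.50 (0.39 to 0.61) and context 1 by 0.35 (0.24 to 0.46). These 4 differences are the ones at 5 bp that passed and also exceeded 2 barcode standard errors. With 2, 4 and 5 copies no context difference at 5 bp exceeded 2 barcode standard errors. These activities are not set against rd, whose own activity was -0.68, -0.31 and -0.87 at 10 bp and -1.25, -1.12 and -1.55 at 5 bp in contexts 1 to 3. Set against rd, the higher activity of rd in context 2 adds to the low standing of PU1 there. The lower activity of rd in context 3 likewise raises the standing of PU1 in that context.

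Most PU1 arrays stood lower against rd in the 10 bp pool than in the 5 bp pool. In the fit over both pools, 10 of 14 arrays were lower at 10 bp, 0 were higher and 4 did not pass (edgeR, adjusted p under 0.05, with 0 higher also at an unadjusted p under 0.05 and by DESeq2, and 1 higher by limma). Of all 439 constructs, 67.4% passed as lower and 16.2% as higher. The median difference of the 14 arrays was -0.76, beside -0.76 over all constructs, and the count of PU1 arrays lies near the share of all constructs.

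The largest differences were those of 3 copies in context 2, at -1.28 (SE 0.15, adjusted p = 2.80e-16), and in context 1, at -1.15 (SE 0.15, adjusted p = 4.02e-14). They stood at -2.37 and -1.94 against rd at 10 bp and at -1.08 and -0.79 at 5 bp. A single copy in context 2 differed by -1.14 (SE 0.14, adjusted p = 2.78e-15), as -0.89 at 10 bp and 0.24 at 5 bp. The single copies in contexts 1 and 3 differed by 0.12 (SE 0.14, adjusted p = 0.394) and 0.19 (SE 0.14, adjusted p = 0.18), and did not pass. A single copy has no neighbouring motif, so the spacing between motifs is the same in both pools for these 3 arrays.

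The 2-copy arrays differed by -1.09, -1.06 and -0.42 in contexts 1 to 3, all passing. Of the 4-copy arrays, contexts 1 and 2 passed at -0.998 and -0.58, while context 3 at -0.33 did not (adjusted p = 0.106). In context 2 a single barcode led the 10 bp array, and the test leaves out this spread among barcodes. For 5 copies, context 2 passed at -0.76 (adjusted p = 0.0175) and context 1 did not at -0.48 (SE 0.39, adjusted p = 0.249). Without rd as the reference, TMM scaling moved the median of all differences by 0.70 and gave 3 arrays higher and 4 lower. Library totals, also without rd, gave 3 and 5. Each spacer is its own pool and its own pair of transfections, so spacer, pool and transfection cannot be told apart. The pools shared 8334 barcode sequences, of which 15 carried the same construct name in both.

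Against the arrays of the other 7 motifs, PU1 changed place with copy number. As a single copy it ranked number 3 of 8 motifs in both libraries by mean activity relative to rd, behind IRF and NFKB. With 2 and 3 copies it ranked number 7 in both libraries, with arrays of CTCF, a factor of chromatin loops and insulators, below it. With 4 and 5 copies it ranked number 6 of 8 and 6 of 7 at 10 bp, and number 7 of 8 and 5 of 7 at 5 bp. These ranks do not compare the same contexts throughout. At 5 copies PU1 had arrays in contexts 1 and 2 only, against 3 arrays for each other motif ranked, and CTCF had 2 arrays at 4 copies. The 5-copy ranks of PU1 rest on 58 barcodes at 10 bp and 19 at 5 bp. Over the 95 pairs of a PU1 array and an array of another motif with the same copy number and context, PU1 was lower in 68 pairs (71.6%) and higher in 21 (22.1%) at 10 bp (limma). At 5 bp it was lower in 59 (62.1%) and higher in 25 (26.3%).

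At 1 copy and 10 bp, PU1 stood at 0.24 relative to rd, against 1.02 for IRF, 0.90 for NFKB, 0.15 for MEF2, 0.14 for FOXO, -0.13 for RUNX3, -0.39 for MYC and -2.16 for CTCF. It was lower than IRF and NFKB in 3 of 3 contexts each, and higher than MYC and CTCF in 3 of 3. Against MEF2 and FOXO it was lower in 2 contexts and higher in 1 each, although its mean ranked above theirs. Against RUNX3 it was higher in 2 contexts and 1 did not pass. At 5 bp the single PU1 copy stood at 0.51, against 0.92 for NFKB, 0.58 for IRF and 0.35 for FOXO, with the other motifs below. There the mean difference from IRF was -0.07 ± 0.10 (SD, n = 2), with 1 context higher, 1 lower and 1 not passing.

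With 2 to 5 copies PU1 stood further below IRF and NFKB than with 1 copy, and nearer to CTCF. PU1 arrays at 10 bp averaged -3.24 ± 0.01 against IRF arrays, -1.94 ± 0.02 against NFKB and -1.48 ± 0.03 against RUNX3, and were lower in 11 of 11 pairs with each. At 5 bp they averaged -3.86 ± 0.02 against NFKB, -1.31 ± 0.18 against IRF, -1.23 ± 0.08 against FOXO and -1.11 ± 0.04 against MYC, lower in 11 of 11 pairs with each. The nearest partners were MYC at 10 bp, at -0.06 ± 0.14 with 3 pairs higher, 5 lower and 3 not passing, and RUNX3 at 5 bp, at -0.19 ± 0.05 with 4 higher, 5 lower and 2 not passing. CTCF arrays were below PU1 in 7 of 8 pairs at 10 bp and 8 of 8 at 5 bp.

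After integration into the genome, arrays of a single PU1 copy had mRNA from more of their barcodes than larger PU1 arrays and than rd. In each mRNA replicate 40.3%, 41.7% and 38.9% of the 72 single-copy barcodes had mRNA, against 7.32%, 13.0% and 8.13% of the 123 rd barcodes. The groups did not overlap. The means were 40.3% ± 1.39 for 1 copy, 22.2% ± 6.74 for 2 copies (60 barcodes), 19.6% ± 3.90 for 3 copies (90 barcodes) and 22.2% ± 4.81 for 4 and 5 copies (12 barcodes), against 9.49% ± 3.08 for rd and 19.6% ± 2.66 for all other constructs (SD, n = 3). Barcodes are not replicates, so no test was made.

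Counting a barcode once if it had mRNA in any replicate, 66.7% of single-copy barcodes were positive (exact 95% interval 54.6% to 77.3%), 50.0% of those with 2 copies (36.8% to 63.2%), 41.1% with 3 copies (30.8% to 52.0%) and 33.3% with 4 and 5 copies (9.92% to 65.1%), against 19.5% for rd (12.9% to 27.6%). Of all integrated barcodes 63.4% had no mRNA, so the shares for 3 copies and for 4 and 5 copies lay near that of all barcodes. By context, the single copy reached 53.3%, 70.4% and 86.7% in contexts 1 to 3, beside 15.4%, 31.6% and 13.0% for rd. These rest on 30, 27 and 15 single-copy barcodes, with exact intervals of 34.3% to 71.7%, 49.8% to 86.2% and 59.5% to 98.3%. The 3 intervals overlap, so no order of contexts is resolved. The single copy was above rd of its context in all 3 contexts, narrowly so in context 2, where the interval of rd reached 48.7%. Mean genomic DNA per barcode was 37.4 RPM for 1 copy, 36.2 RPM for 2 and 28.4 RPM for 3, beside 27.5 RPM for rd, so the groups were not equally covered, and the part of this in the shares was tested only with a minimum of 20 RPM. With that minimum the shares were 44.7%, 31.2% and 24.0% for 1 to 3 copies, against 13.6% for rd. PCR reads carry no molecular identifiers and the table gives no read totals, so the intervals cover counting error over barcodes only.

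The single PU1 copy stood beside single copies of other motifs as follows. Its 40.3% compares with 37.1% for IRF, whose replicates ran from 32.9% to 41.8% and so overlap those of PU1. The other 6 motifs lay at 18.9% for NFKB, 15.0% for FOXO, 11.1% for MYC, 9.80% for MEF2, 9.79% for RUNX3 and 9.67% for CTCF. At 3 copies the share was 65.1% for IRF and 55.4% for NFKB, while PU1 stood at 19.6%. Among barcodes that had mRNA, the median ratio of mRNA to genomic DNA was 0.80 for 1 PU1 copy, 0.78 for 2 and 0.62 for 3, against 0.67 for rd. The quartiles for rd ran from 0.25 to 1.87, and barcodes below the detection limit of the mRNA samples do not enter these medians.

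Summed over barcodes, most integrated PU1 arrays gave less mRNA than genomic DNA, with no steady order by copy number. Of the 11 arrays with at least 3 barcodes, 8 had less mRNA than genomic DNA, 0 had more, also at an unadjusted p under 0.05, and 3 did not pass (limma on log2 of summed RPM with 0.5 added). Of all 513 constructs, 55.9% were lower and 13.5% higher. The single copy in context 1 gave 1328, 861 and 1364 RPM of mRNA, against 1110, 1147 and 1185 RPM of genomic DNA. These ranges overlap and the difference of 0.02 (95% interval -0.56 to 0.59, adjusted p = 0.949) did not pass. In context 2 the single copy stood at -0.52 (-1.21 to 0.16, adjusted p = 0.132) and in context 3 at -1.11 (-1.79 to -0.43, adjusted p = 0.0158). Among all integrated barcodes 1, of a construct that joins IRF and PU1 motifs, held 26.0%, 30.3% and 21.8% of the listed mRNA in the 3 replicates and so lowered the mRNA RPM of all other barcodes. With that barcode left out and mRNA RPM brought back to the same listed total, 7 arrays passed as lower and 0 as higher. The single copies in contexts 1 to 3 then stood at 0.45, -0.088 and -0.68, and the one in context 3 no longer passed (adjusted p = 0.0648). A common scaling drops out of differences from rd, apart from the 0.5 added, and there the counts were 4 higher and 5 lower as before.

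Arrays of 2 and 3 copies all passed as lower. The lowest were 2 copies in context 1, with 80.0, 191 and 174 RPM of mRNA against 848, 787 and 885 RPM of genomic DNA, and 3 copies in context 2, with 90.5, 258 and 172 RPM against 829, 899 and 987 RPM. Their log2 differences were -2.59 (-3.52 to -1.66, adjusted p = 0.00261) and -2.50 (-3.52 to -1.48, adjusted p = 0.00404), with no overlap between mRNA and genomic DNA. The other arrays of 2 and 3 copies lay between -1.50 and -1.09. The array of 4 copies in context 2, on 6 barcodes, stood at -1.08 (adjusted p = 0.00925). That in context 1, on 4 barcodes, was listed at 0 RPM of mRNA in 2 replicates and at 107 RPM in the third, all from 1 barcode, and did not pass. The arrays of 4 copies in context 3 and of 5 copies in context 2 had 1 barcode each, listed at 0 mRNA in all 3 replicates, and were not tested.

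Single barcodes carried much of these sums. The barcode gcctggacgtgt gave 602, 526 and 735 RPM of mRNA for a mean of 56.5 RPM of genomic DNA, which is 52.4% of the mRNA of the single copy in context 1 and 16.1% of the mRNA of all 234 PU1 barcodes. Without the leading barcode of each construct, that array stood at -1.03 in mRNA against genomic DNA (adjusted p = 0.0394). The barcode gcaccgtggact gave 141, 106 and 203 RPM and 42.0% of the mRNA of 2 copies in context 3. The 20 barcodes with the most mRNA held 51.3% of all PU1 mRNA. The share of barcodes with mRNA counts each barcode once, though a barcode that takes many reads lowers the depth left for all others.

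Set against integrated rd of the same context, the direction differed between contexts. Of the 11 arrays, 4 were higher and 5 lower (limma), beside 30.4% and 29.4% of the 510 constructs tested. All 3 arrays tested in context 3 were higher, at 2.66, 2.68 and 2.27 for 1 to 3 copies, and all 4 tested in context 2 were lower, at -1.28, -2.09, -3.25 and -1.83 for 1 to 4 copies. In context 1 the single copy was higher at 1.02 (adjusted p = 0.0297) and 2 copies lower at -1.59 (adjusted p = 0.0139), and 3 and 4 copies did not pass. The rd constructs themselves differed, with log2 ratios of mRNA to genomic DNA of -1.0, 0.75 and -3.77 in contexts 1 to 3. The barcode acaccatgatac held 67.3% of the mRNA of rd in context 1, and atgattacgcaa 84.0% of that in context 2. In context 3, rd had mRNA from only 4.35%, 6.52% and 4.35% of its 46 barcodes in the 3 replicates, and 0 barcodes had it in all 3. Its leading barcode held 46.0% of its mRNA and was listed at 0 RPM in the second replicate. The values against rd in context 3 thus rest on few rd barcodes.

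Without the leading barcode of each construct, none of the 5 lower arrays passed as lower, and the single copy in context 2 turned to 1.35 and did not pass (adjusted p = 0.0856). The 4 higher arrays still passed. In its context rd lost a larger part of its mRNA than each of these higher and lower arrays did, so this setting can test neither set. The part lost in context 1 was 67.3% for rd, 52.4% for the single copy and 25.2% for 2 copies. In context 2 it was 84.0% for rd and 11.9%, 28.1%, 20.8% and 58.5% for 1 to 4 copies. In context 3 it was 46.0% for rd and 23.3%, 42.0% and 25.3% for 1 to 3 copies. The array of 4 copies in context 1 then passed as lower at -4.35, but the barcode taken out was its only one with mRNA, so that its outcome was fixed by the removal. Against the mean of the 3 rd constructs, only 3 arrays passed. These were the single copies in contexts 1 and 2, at 1.36 (0.53 to 2.19, adjusted p = 0.0211) and 0.82 (0.18 to 1.45, adjusted p = 0.0462), and 2 copies in context 1, at -1.25 (-2.23 to -0.28, adjusted p = 0.046). In that setting 28.6% of all constructs were higher and 18.2% lower.

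Of the 234 integrated PU1 barcodes, 126 were also listed in the episomal 5 bp table, 123 of them under the same construct, and 102 of those had at least 5 plasmid reads there. Pooled over the single-copy barcodes of this overlap, those with integrated mRNA had an episomal activity of -0.65 and -0.98 in the 2 mRNA libraries (21 barcodes), and those without had -1.0 and -0.74 (15 barcodes). The 2 sets overlapped. For 3 copies the values were -1.97 and -2.47 with integrated mRNA (16 barcodes) and -2.28 and -2.35 without (17 barcodes), again overlapping. For 2 copies they were -1.68 and -1.62 with integrated mRNA (17 barcodes) and -1.68 and -1.24 without (10 barcodes), which also overlapped. Pooled over all copies the sets did not overlap, at -1.30 and -1.55 with integrated mRNA (57 barcodes) and -1.84 and -1.68 without (45 barcodes), and the pooled sets differ in their mix of copy numbers. For rd barcodes the sets did not overlap either, but in the other direction. They stood at -1.53 and -1.65 with integrated mRNA (12 barcodes) and -1.43 and -1.17 without (44 barcodes). No test was made.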

How the data were processed

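The 13 samples were grouped by assay, spacer and material, as their titles state them. Episomal values are raw read counts of each barcode beside its construct name, as deposited. Integrated values are, per the file headers, RPM for the mRNA and genomic DNA of each barcode and read counts for plasmid DNA. Every barcode listed there reached 2 RPM in each of the 3 genomic DNA samples. Aligner, barcode counter and genome build were not given in the sources used here, and 9 value columns that match no sample stayed unused. Barcodes without a construct name held 16.6% to 18.5% of episomal reads and stayed out of library sizes and tests.

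Reads of named barcodes with at least 5 plasmid reads were added up by construct. Those constructs that had 5 or more such barcodes in both spacers (439 beside the 3 rd constructs) were fitted over 6 libraries with edgeR 4.0.16 (quasi-likelihood test, R 4.3.3), with the log reads of rd of the same context as offset. With 1 plasmid DNA library per spacer, plasmid DNA was taken to vary like mRNA. Steps, slopes, contexts and motif pairs were tested with limma 3.58.1 on differences per mRNA library, which cover only the spread between the 2 mRNA libraries, so a standard error from the spread among barcodes is set beside them. Integrated RPM were summed per construct with at least 3 barcodes and tested with limma on log2(RPM + 0.5), so folds of weak arrays are understated. All tests were two-sided, with Benjamini-Hochberg adjustment over all constructs or rows and a threshold of 0.05, and intervals are 95%, exact (Clopper-Pearson) for shares. Alternatives were other scalings, DESeq2 1.42.0, other minimums of reads and barcodes, medians over barcodes, left-out barcodes and replicates, and other pseudocounts. The fits were tested on simulated data.

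Every PU1 array could be named, and arrays of other motifs only as group values. The members, comparisons and alternatives were chosen with earlier results of these data known. The mRNA replicates differed beyond sampling noise (chi-square per construct 6.75 at 10 bp and 6.40 at 5 bp) and counted as separate samples. Nothing in the labels says that the integrated triplicates come from separate cultures, so p-values measure the spread between these samples, which may be technical. PCR reads without molecular identifiers are not independent molecules, so intervals cover counting error only. Integrated values have unknown depth.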

Additional observations from a re-analysis of the deposited data

Results flagged for a closer look

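For 10 PU1 arrays the difference from rd of the same context was itself different between the 10 bp and the 5 bp pool (edgeR, adjusted p under 0.05 for the interaction), as log2 values of 10 bp minus 5 bp. A single copy in context 2 differed by -1.14. Arrays of 2 copies differed by -1.09, -1.06 and -0.42 in contexts 1 to 3, and arrays of 3 copies by -1.15, -1.28 and -0.76. Arrays of 4 copies differed by -0.998 in context 1 and -0.58 in context 2, and 5 copies in context 2 by -0.76. Of all constructs tested, 67.4% were lower at 10 bp. Spacer, pool and transfection cannot be told apart.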

How the results depend on the processing

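At 10 bp the arrays of 2 to 5 copies and the single copy in context 2 kept their lower direction under every alternative run. The tests gave 12 lower calls, or 10 where a minimum of 20 plasmid reads or 20 barcodes left fewer arrays to test. At 5 bp the calls depended on the reference. TMM scaling and library totals set mRNA against plasmid DNA without rd, so their values are not differences from rd. With TMM, 0 arrays were higher, and the single copies stood at -0.043, -0.32 and -0.38 and 2 copies in context 3 at -0.93. With library totals, 0 were higher and 14 lower, and the same arrays stood at -0.59, -0.87, -0.93 and -1.48. With the summed reads of all rd constructs, 2 copies in context 3 stood at -0.18. At 10 bp, library totals left 0 arrays higher, with the single copy in context 3 at -0.055.

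The difference between pools (10 bp minus 5 bp) also followed the reference, which under TMM scaling and library totals is not rd. TMM gave 3 arrays higher and 4 lower, with 2 copies in context 3 at 0.26, 4 copies in contexts 2 and 3 at 0.23 and 0.36 and 5 copies in contexts 1 and 2 at 0.10 and 0.055. Library totals gave 3 higher and 5 lower, with the same arrays at 0.25, 0.22, 0.35, 0.089 and 0.042. Summed rd reads gave -0.0058 for the single copy in context 1. By limma on activity relative to rd, an alternative chosen after seeing the data, 1 array was higher and 12 lower without a replicate block. With the replicate number as a replicate block it was again 1 higher and 12 lower. The numbers do not pair the samples, since same-numbered libraries correlated at -0.05 between spacers and at -0.02, 0.05 and -0.03 between integrated mRNA and genomic DNA. In the integrated library the replicate block gave 8 lower calls against genomic DNA, and 3 higher and 5 lower against rd, the single copy in context 1 no longer passing (adjusted p = 0.0713). Leaving out 1 mRNA library at a time gave 0 to 1 higher arrays (1 without the first 10 bp mRNA library) and 8 to 10 lower.

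Copy-number steps up to 3 copies kept their direction under the alternatives run, and the later ones did not. At 5 bp, with no plasmid read minimum, the steps from 3 to 4 and 4 to 5 copies in context 2 were -0.045 and 0.088. With at least 20 plasmid reads, 1 step was higher and that from 3 to 4 copies in context 1 was 0.011. Without the 1% strongest barcodes the steps from 4 to 5 copies were 0.026 and 0.074 in contexts 1 and 2, and with medians over barcodes 5 steps were lower. At 10 bp, 2 steps were higher with no minimum and 2 without the strongest barcodes. The step from 4 to 5 copies in context 2 was then 0.57, and by medians it was 0.38 and that from 3 to 4 copies in context 3 was 0.014. The slope in context 2 at 10 bp without single copies was 0.026.

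Of the context differences at 5 bp, 2 were lower with no minimum, 3 higher with at least 20 plasmid reads, 3 higher without the strongest barcodes, and 2 higher and 1 lower by medians. With at least 20 reads, context 3 minus 2 at 1 copy was 0.072, and context 3 minus 1 was -0.068 at 2 copies and -0.12 at 4. Without the strongest barcodes, context 3 minus 1 at 2 copies was -0.0018. At 10 bp, 2 were lower with no minimum and 2 with at least 20 reads. Context 3 minus 2 at 4 copies was 0.0016 with no minimum, 0.77 without the strongest barcodes and 0.77 by medians. Context 2 minus 1 was 0.071 at 3 copies with at least 20 reads, -0.043 at 2 copies without the strongest barcodes, and -0.024 at 2 and -0.023 at 4 copies by medians.

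In the integrated library, at least 20 barcodes per construct left 4 arrays lower against genomic DNA, and 2 higher and 3 lower against rd, from fewer arrays. The single copy in context 1 against genomic DNA was -0.08 and -0.10 without mRNA replicates 1 and 3, -0.01 without genomic DNA replicate 1 and -1.03 without the top barcode. Lower calls against rd ran from 3 (without genomic DNA replicate 1) to 6 as single samples were left out, and higher calls from 3 to 4. Without the top barcode all 5 lower calls were lost, but rd lost a larger part of its mRNA than those arrays, so this setting cannot test them. In it 1 array was lower, that of 4 copies in context 1, whose only barcode with mRNA was the one removed. The arrays of 1, 2 and 4 copies in context 2 stood at 1.35, 0.25 and 0.41 and 3 copies in context 1 at 1.07. Against the mean of the rd constructs 2 were higher and 1 lower, with 1, 2 and 4 copies in context 2 at 0.82, 0.0042 and 0.26, and 3 copies at 0.0017 in context 1 and -0.16 in context 3. Without the strongest mRNA barcode of the table, an alternative chosen after seeing the data, 7 arrays were lower against genomic DNA, and the calls against rd numbered 4 higher and 5 lower. The share of single-copy barcodes with mRNA was 38.4% with at least 5 RPM of mRNA, 38.6% with at least 20 plasmid reads and 44.7% with at least 20 RPM of genomic DNA, where 2 and 3 copies stood at 31.2% and 24.0% and rd at 13.6%. The cause of these changes was not tested, except that fewer arrays were counted under the barcode minimum. Depth limits arrays of 4 and 5 copies most.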
